A study of Mus musculus with 4 samples.

Results

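The sensory cortex of mice given DOCA-salt was compared with that of sham-treated mice through the single-cell RNA sequencing libraries that carry those 2 names in their titles. DOCA is deoxycorticosterone acetate, a mineralocorticoid that is given together with salt to raise blood pressure. All mice were labelled wild type (WT), 3 per group per the labels, and strain, sex, age, dose and length of treatment are not given in the sources used here. Each group was 1 library, and whether the cells of its 3 mice were pooled is not stated. A barcode was taken as a cell if it held 300 genes or more and no more than 20% mitochondrial UMIs (unique molecular identifiers, which count transcript molecules), giving 11354 cells in the DOCA-salt library and 11086 in the sham library. These 22440 cells were part of 44912 in the series, the rest coming from 2 hippocampus libraries. The treatment field of the cortex library titled DOCA-salt reads sham, and the same field contradicts the title of the hippocampus sham library. That the libraries of either tissue differ in treatment at all, and every direction given here, therefore rests on the titles. No test was possible with 1 library per group. Brackets after a ratio or a share hold the exact 95% interval of counting error, which says nothing of the spread between mice, and each pair of values gives the DOCA-salt library first.

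The cortex holds neurons together with glia and the cells of its vessels. Microglia are the resident macrophages of the brain, astrocytes clear glutamate and potassium and wrap the vessels with their endfeet, oligodendrocytes make myelin, and endothelial cells carry the tight junctions and transporters of the blood-brain barrier. The DOCA-salt model is known as a form of hypertension with low renin, in which salt and the mineralocorticoid receptor act together, and glucocorticoids can bind that receptor as well as their own.

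Taken whole, both libraries were of like depth. The kept cells held 66760352 and 68041791 UMIs, with a median of 5599.5 and 5802 per cell, 2417 and 2454.5 genes and 1.79% and 1.84% mitochondrial UMIs. The libraries shared 94 barcodes, and pairs of libraries across the series shared 94 to 105. Doublets were kept, and a doublet caller marked 5.28% and 6.65% of cells. Each cell was gated into a class by a set of marker genes, and 89.5% and 87.0% of cells fell into 1 of 18 classes. Neurons were close to absent for a cortex sample, with 17 and 7 barcodes passing the neuron gate. Names such as microglia-like stand for these gates, which are ranges of marker levels and not sorted types. Between 2.11% and 4.91% of the microglia-, oligodendrocyte- and astrocyte-like cells lay near a gate's limit, but 19.0% and 14.2% of the endothelial-like cells did. Within classes the mitochondrial share differed more. Its median was 1.60% against 2.19% in astrocyte-like cells, which held a median of 5886 against 6599 UMIs. It was 1.29% against 0.848% in microglia-like, 2.85% against 2.33% in oligodendrocyte-like and 1.70% against 1.34% in endothelial-like cells.

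Astrocyte-like cells made up a larger share of the DOCA-salt library and the other main classes a smaller one. Their share was 34.9% (3968 cells) against 29.4% (3259 cells), a ratio of 1.19 (1.13 to 1.25). Oligodendrocyte-like cells made up 25.2% against 26.9%, a ratio of 0.934 (0.887 to 0.983). The share of microglia-like cells was 21.4% against 23.1%, a ratio of 0.927 (0.877 to 0.980). In the hippocampus libraries, processed the same way, the microglia-like ratio was 1.15 (1.09 to 1.22). Endothelial-like cells made up 4.91% (558 cells) against 5.51% (611 cells), and the interval of their ratio, 0.892 (0.794 to 1.002), included 1. Pericytes are the contractile cells wrapped around capillaries, and pericyte-like cells numbered 119 against 80, a ratio of shares of 1.45 (1.08 to 1.95).

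**Figure D1:**
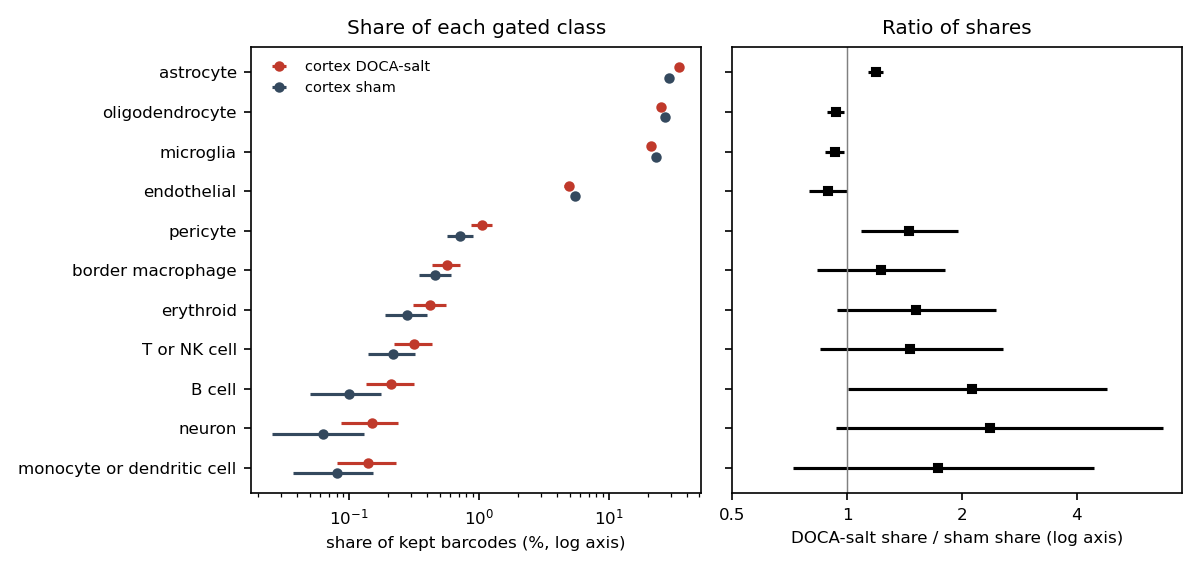
Share of cells in each gated class, in percent on a log axis, for the DOCA-salt and sham cortex libraries (1 library each, bars are exact 95% binomial intervals). Astrocyte-like cells stand at 34.9% against 29.4%, and the rare blood-derived classes have wide intervals.

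Blood-derived classes were few. Cells passing the gates for B cells numbered 24 against 11, a ratio of shares of 2.13 (1.005 to 4.82). T or NK cells numbered 36 against 24, with a ratio of 1.46 (0.850 to 2.57), and monocytes or dendritic cells 16 against 9, with a ratio of 1.74 (0.722 to 4.46). Neutrophils numbered 6 against 3. Border macrophages, the macrophages around vessels and in the meninges, numbered 64 against 51, a ratio of 1.23 (0.835 to 1.81). For all of these but the B cells the interval included 1. No cell passed the fibroblast gate, which allows a share of up to 0.0325% and 0.0333%. Barcodes with at least 4 of the 7 smooth muscle markers numbered 16 against 39, and 11 and 33 of them fell into no class.

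Markers of the other cell types within each class set how its genes can be read. The summed level of a class's own gate markers, in counts per 1000000 UMIs of that class (CPM), had a ratio of 0.92 in microglia-like, 0.89 in oligodendrocyte-like, 0.99 in astrocyte-like and 1.05 in endothelial-like cells. The astrocyte markers were higher in the DOCA-salt library within the other classes. They summed to 848 against 620 CPM in microglia-like cells (a ratio of 1.37), had a ratio of 1.33 in oligodendrocyte-like cells and stood at 1379 against 1091 CPM in endothelial-like cells (a ratio of 1.26). Pericyte markers were higher too, with ratios of 1.37, 1.73, 1.52 and 1.49 in microglia-, oligodendrocyte-, astrocyte- and endothelial-like cells, where they stood at 267 against 179 CPM in the last. Neutrophil markers were low but had ratios of 1.84 to 1.99 in these 4 classes. Smooth muscle markers had a ratio of 1.54 in endothelial-like cells (59 against 44 UMIs). Their ratios were 0.70, 0.52 and 0.79 in microglia-, oligodendrocyte- and astrocyte-like cells. Microglia markers stood at 512 against 448 CPM in astrocyte-like cells and at 391 against 359 CPM in oligodendrocyte-like cells. The part of such RNA from other classes in the results below was not tested. For some of the genes that are far higher in another class the level there is given, but not for all.

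Ratios were taken from the UMIs summed over the cells of a class, for genes with at least 50 UMIs over both libraries, and a gene was counted at a ratio of at least 1.5 in either direction. By that measure 5.07% of 12241 genes in microglia-like cells were higher in the DOCA-salt library and 2.11% lower. The shares were 6.17% and 2.61% of 12205 genes in oligodendrocyte-like cells and 5.94% and 2.13% of 13641 genes in astrocyte-like cells. In endothelial-like cells, with the fewest UMIs of the main classes, they were 4.96% and 3.67% of 8776 genes. These shares are the background for each count below. The median log2 ratio over all genes of a class lay between -0.01 and 0.04.

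**Figure D2:**
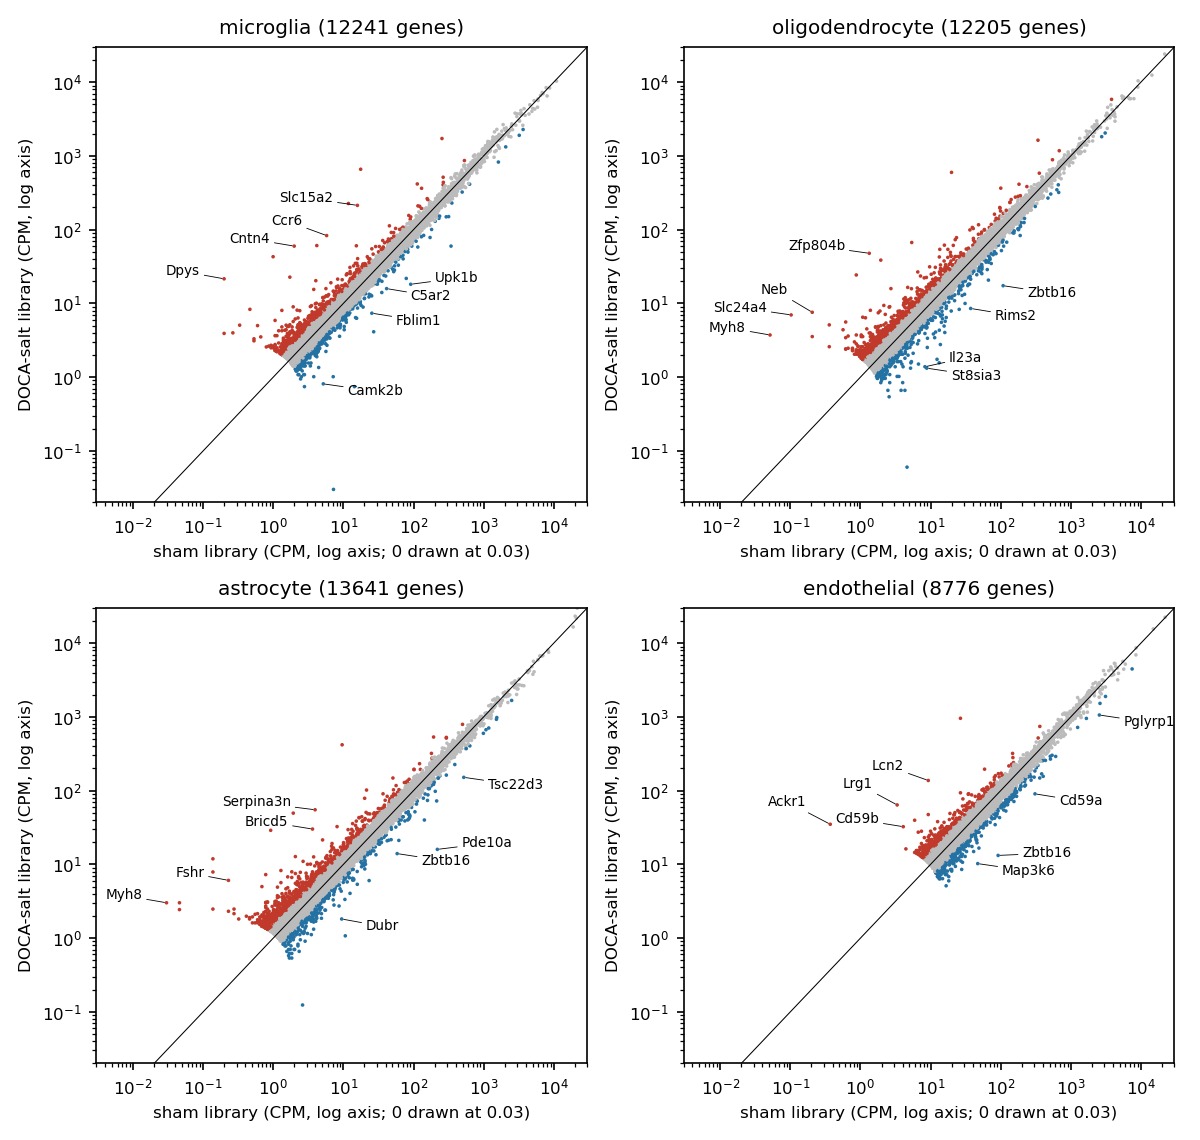
Level of each gene in the sham library (x axis) and the DOCA-salt library (y axis), in CPM on log axes, in the 4 main classes. Points on the diagonal are equal in both libraries, red and blue mark genes at least 1.5-fold higher and lower in the DOCA-salt library, values of 0 are drawn at 0.03, and the labelled genes are those with the largest ratios by the naming rule, among them Dpys in microglia-like and Pde10a in astrocyte-like cells.

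Few genes differed in every main class. Of 8286 genes measured in all 4 classes, 16 had a DOCA-salt level of at least 1.5 times that of sham in each class (0.193%) and 10 had a sham level of at least 1.5 times that of DOCA-salt in each (0.121%). Of these, 10 and 9 fall under the naming rule, which leaves out predicted genes, ribosomal proteins and gate markers. Arhgap6, which encodes a GTPase-activating protein (chrX:168795099-169304435, GRCm38), had the widest gap of those named. In microglia-like cells it stood at 42.9 against 0.994 CPM, 43.2-fold higher (26.0 to 77.6), and in astrocyte-like cells at 49.5 against 1.93 CPM, 25.7-fold higher (18.9 to 35.9). In oligodendrocyte-like cells it was 27.8-fold higher (17.2 to 48.3) and in endothelial-like cells 5.11-fold higher (3.29 to 8.24). The ratio was smallest in endothelial-like cells.

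Slc15a2 encodes a peptide transporter (PEPT2) of astrocytes (chr16:36750177-36784962). It stood at 516 against 294 CPM in astrocyte-like cells, 1.76-fold higher (1.70 to 1.81). In microglia-like cells it stood at 213 against 15.8 CPM, 13.5-fold higher (11.8 to 15.4). At least 1 UMI of it was found in 54.2% (52.2 to 56.2) against 9.0% (7.92 to 10.2) of microglia-like cells. After each cell was thinned to 2000 UMIs, which sets all cells to the same depth, these shares were 30.8% against 3.28%. The astrocyte-like level differed by less than 2-fold and the microglia-like level by over 10-fold. The astrocyte markers in microglia-like cells had a ratio of 1.37, and the part of astrocyte RNA in the Slc15a2 values was not tested.

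Angiotensinogen (Agt, chr8:124556534-124569706), the precursor of angiotensin and a product of astrocytes in the brain, stood at 528 against 294 CPM in astrocyte-like cells, 1.79-fold higher (1.74 to 1.85). Hes5, a target of Notch signalling, stood there at 792 against 500.3 CPM, 1.58-fold higher (1.55 to 1.62). In the other main classes of the DOCA-salt library Agt reached 5.64% to 7.04% and Hes5 4.73% to 7.81% of the astrocyte-like level, with ratios of 2.12 to 2.39 and of 1.92 to 2.17. Tnf, the cytokine tumour necrosis factor, had the mirror pattern. It stood at 865 against 532 CPM in microglia-like cells, 1.63-fold higher (1.58 to 1.67), and in the other 3 classes of the DOCA-salt library reached 2.56% to 3.75% of that level. The transcription factor Cebpb was 1.94-fold higher (1.87 to 2.02) in microglia-like and 2.54-fold higher (2.2 to 2.94) in astrocyte-like cells.

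Gstp1, a glutathione transferase with close neighbouring copies, so that its counts are uncertain, stood at 1176 against 685 CPM in oligodendrocyte-like cells, 1.72-fold higher (1.68 to 1.76). Its ratios in the other 3 classes were 1.58 to 1.67, and in the hippocampus libraries its ratios were below 1 in all 4. Cdk2ap1, an inhibitor of a cell cycle kinase, had ratios of 1.59 to 2.16 in cortex and of 0.92 to 1.01 in hippocampus. Both genes were thus higher across classes in the cortex pair and not in the hippocampus pair, a difference that was not tested.

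Zbtb16, a zinc finger transcription factor whose gene responds to glucocorticoids (chr9:48654297-48836222), was lower in every class. It stood at 13.2 against 91.9 CPM in endothelial-like cells, 6.95-fold lower (4.77 to 10.4), and at 17.4 against 108 CPM in oligodendrocyte-like cells, 6.24-fold lower (5.52 to 7.08). In astrocyte-like cells it stood at 14.0 against 58.5 CPM and at least 1 UMI was found in 7.69% (6.88 to 8.56) against 30.0% (28.5 to 31.6) of cells. Microglia-like cells held little of it, 2.23 against 5.63 CPM, and the ratio had the same direction there.

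Sod3 encodes the superoxide dismutase of the extracellular space (chr5:52363791-52371418). It stood at 40.0 against 143 CPM in astrocyte-like cells, 3.58-fold lower (3.33 to 3.85). In pericyte-like cells, where its level was highest, it stood at 1311 against 2271 CPM, 1.73-fold lower (1.53 to 1.97). Pglyrp1, a peptidoglycan recognition protein, was highest in endothelial-like cells at 1061 against 2557 CPM, 2.41-fold lower (2.30 to 2.52). Rnaset2b, a ribonuclease with a close copy that makes its counts uncertain, stood at 150.3 against 317 CPM in microglia-like cells, with ratios of 0.474 to 0.540 in the 4 classes. Snapc1, part of the complex that transcribes small nuclear RNA, had ratios of 0.620 to 0.641, and Atpsckmt, a methyltransferase of the mitochondrial ATP synthase, of 0.434 to 0.653.

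The glucocorticoid target list holds genes that the glucocorticoid receptor is known to switch on, and in each of the 4 main classes more of its members were at least 1.5-fold lower than higher in the DOCA-salt library, by the widest margin in oligodendrocyte-like cells. In oligodendrocyte-like cells 8 of 18 measured members were at least 1.5-fold lower and 1 higher, with a median log2 ratio of -0.46, against 2.61% and 6.17% of all genes. In astrocyte-like cells 6 of 19 were lower and 2 higher, with a median of -0.17. In endothelial-like cells 4 of 17 were lower and 1 higher. In microglia-like cells 5 of 17 were lower and 0 higher, with a median of -0.06, against 2.11% and 5.07% of all genes. The hippocampus medians were -0.54 in oligodendrocyte-like and -0.55 in astrocyte-like cells.

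Tsc22d3 encodes GILZ, a leucine zipper protein induced by glucocorticoids (chrX:140539528-140600659). It stood at 151 against 522 CPM in astrocyte-like cells, 3.44-fold lower (3.32 to 3.57), and its UMIs were found in 50.6% (49.1 to 52.2) against 84.8% (83.5 to 86.0) of those cells. At 2000 UMIs per cell the shares were 23.9% against 59.0%. The gap was narrower in endothelial-like cells (156 against 404 CPM), oligodendrocyte-like cells (99.9 against 179.7 CPM) and microglia-like cells (153 against 236 CPM). Ordered by ratio, astrocyte-like cells came first and microglia-like cells last of the 4. Their intervals, which cover counting error only, did not overlap, and the order was not tested.

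Fkbp5, a chaperone partner of the glucocorticoid receptor (chr17:28399094-28517527), stood at 8.30 against 25.6 CPM in oligodendrocyte-like cells, 3.09-fold lower (2.55 to 3.76), and at 2.73 against 8.67 CPM in astrocyte-like cells, 3.18-fold lower (2.39 to 4.28). Both classes were lower by about the same ratio. Klf9, a transcription factor of the Kruppel-like family, stood at 226 against 388 CPM in astrocyte-like cells, 1.72-fold lower (1.66 to 1.78). Cdkn1a, the p21 inhibitor of the cell cycle, stood at 27.6 against 48.2 CPM in oligodendrocyte-like cells, 1.75-fold lower (1.56 to 1.96). Pdk4, a kinase that shuts the entry of pyruvate into mitochondria, went the other way, at 1.92-fold higher (1.60 to 2.32) in oligodendrocyte-like and 1.56-fold higher (1.44 to 1.68) in astrocyte-like cells. Errfi1, a brake on the EGF receptor, was 1.86-fold higher (1.62 to 2.15) in astrocyte-like cells.

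The receptors of these steroids differed by less. The glucocorticoid receptor gene Nr3c1 stood at 179 against 165 CPM in astrocyte-like cells and at 199.9 against 229 CPM in microglia-like cells, with ratios of 0.874 to 1.17 over the 4 main classes. The mineralocorticoid receptor gene Nr3c2 had ratios of 1.03 to 1.22 in those classes and stood at 86.6 against 74.3 CPM in astrocyte-like cells. Hsd11b1, which regenerates active glucocorticoid inside cells, had a ratio of 0.929 (0.884 to 0.978) in astrocyte-like cells, where its level was 128 against 137 CPM. Of the receptor group as a whole, Agt alone passed 1.5-fold in astrocyte- and endothelial-like cells. In microglia- and oligodendrocyte-like cells 2 of 5 measured members did, Agt and Hsd11b1, the latter at 92 against 59 UMIs and 128 against 91 UMIs, with ratios of 1.59 (1.13 to 2.24) and 1.65 (1.25 to 2.18).

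**Figure D3:**
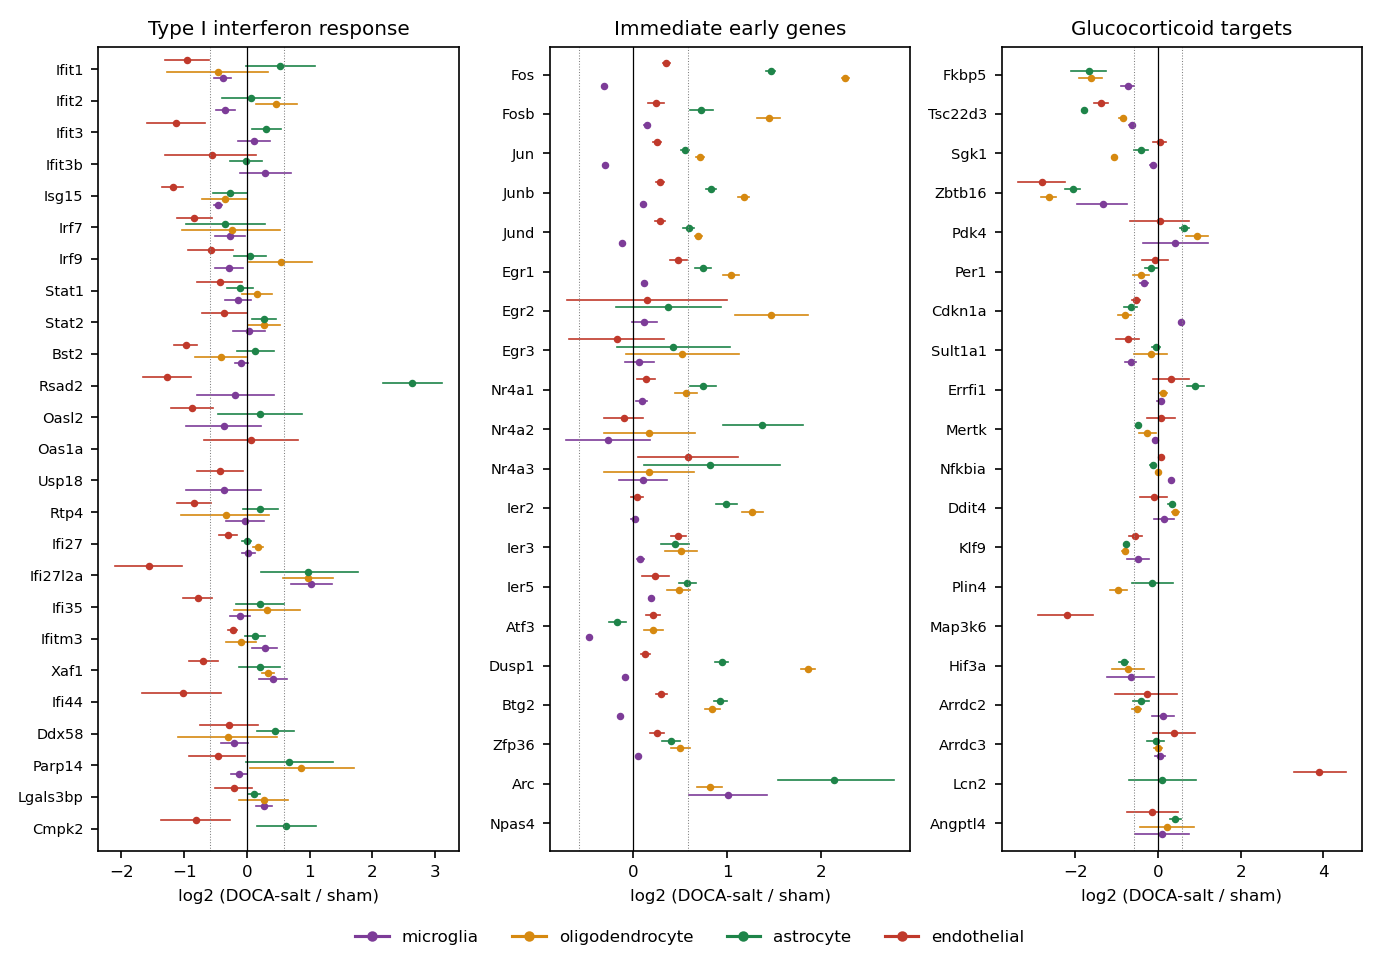
Log2 ratio of DOCA-salt over sham for members of the interferon, immediate early gene and glucocorticoid target lists in the 4 main classes (points, with 95% intervals of counting error as bars; dotted lines mark 1.5-fold). Of the interferon genes in endothelial-like cells 23 of 24 lie below a ratio of 1, and the 19 immediate early genes lie above it in oligodendrocyte-like cells.

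Interferon-response genes were lower in endothelial-like cells of the DOCA-salt library. Of 24 measured members 13 were at least 1.5-fold lower and 0 higher, against 3.67% and 4.96% of all genes in that class, with a median log2 ratio of -0.74. The promoters of 3 of them, Isg15, Rsad2 and Ifit1, are shown as examples of the letters described next. They were chosen with their values seen, all 3 hold the letters, and 6 of the 11 lower members with a RefSeq promoter do not. Each line is the 120 bases before the annotated start, from RefSeq on GRCm38.p6, on the strand of the gene, and capitals mark the letters GAAA, any 2 bases and GAAA again, or the same on the opposite strand, a simple form of the element to which interferon-activated factors bind. Isg15 lies at chr4:156200819-156200938 on the minus strand, Rsad2 at chr12:26456453-26456572 on the minus strand and Ifit1 at chr19:34640769-34640888 on the plus strand.
Isg15: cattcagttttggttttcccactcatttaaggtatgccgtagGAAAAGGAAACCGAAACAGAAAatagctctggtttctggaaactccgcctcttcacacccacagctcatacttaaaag
Rsad2: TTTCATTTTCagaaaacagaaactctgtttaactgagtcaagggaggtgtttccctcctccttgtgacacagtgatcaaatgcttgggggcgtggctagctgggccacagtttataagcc
Ifit1: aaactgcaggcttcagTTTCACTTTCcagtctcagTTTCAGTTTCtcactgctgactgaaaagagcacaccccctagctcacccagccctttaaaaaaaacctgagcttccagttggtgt

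The capitals hold overlapping matches in Isg15, 1 match in Rsad2 and 2 in Ifit1. Over windows from 250 bases before to 50 after the start, the letters were found on either strand in 1131 of 32851 promoters (3.44%). Counted by gene, where a gene can have several promoters, 1079 of 27025 genes held them (3.99%), as did 262 of 7064 genes measured in endothelial-like cells (3.71%) and 10 of 19 genes of the interferon list that matched RefSeq by symbol (52.6%). Among list members measured in endothelial-like cells, 5 of 11 that were at least 1.5-fold lower held the letters (45.5%), and so did 5 of 7 of the others (71.4%). The share with the letters was thus not higher among the members that were at least 1.5-fold lower. A match describes the letters in the window and does not show that a factor binds there.

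Isg15, a ubiquitin-like protein that is attached to other proteins after interferon (ENSMUSG00000035692), stood at 169 against 384 CPM in endothelial-like cells, a ratio of 0.440 (0.391 to 0.494). Its UMIs were found in 34.6% (30.6 to 38.7) against 56.3% (52.3 to 60.3) of endothelial-like cells and, at the shared depth of 2000 UMIs, in 22.5% against 41.9%. In astrocyte-like cells, which are deeper, the share of cells with a UMI was 4.28% against 6.26%. The gap in endothelial-like cells was therefore seen in the number of cells with the transcript as well as in its summed level.

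Rsad2 encodes viperin, an antiviral enzyme (ENSMUSG00000020641). In endothelial-like cells it stood at 34.6 against 83.4 CPM, a ratio of 0.415 (0.317 to 0.537), and was found in 10.6% against 22.9% of cells. In astrocyte-like cells it stood at 12.8 against 2.07 CPM from 309 against 45 UMIs, 6.18-fold higher (4.51 to 8.65). The directions in these 2 classes were opposite, and whether they differ beyond the spread between mice was not tested. Ifit1, an RNA-binding antiviral protein (ENSMUSG00000034459), stood at 42.3 against 81.9 CPM in endothelial-like cells, a ratio of 0.516 (0.403 to 0.657).

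Other endothelial members had ratios of 0.340 for Ifi27l2a, 0.459 for Ifit3, which has a near-identical copy, 0.507 for the virus-tethering protein Bst2 and 0.558 for Irf7, the transcription factor that amplifies the interferon response. Oas1a, which senses double-stranded RNA, was the single member above 1, at 1.05. In microglia-like cells 1 of 22 members was at least 1.5-fold higher, Ifi27l2a at 2.04, and none was as much lower. Isg15 there stood at 262 against 359 CPM and Ifit1 at 52.9 against 69.2 CPM, with ratios between 0.7 and 0.8. In astrocyte-like cells 4 of 22 were higher and 0 lower. The hippocampus medians were -0.71 in endothelial-like and 0.17 in astrocyte-like cells.

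The largest endothelial ratios on the high side came from small numbers of cells. Ackr1, the atypical chemokine receptor of venules (ENSMUSG00000037872), had 82 against 1 UMIs, found in 20 cells against 1, and 4 of the 20 cells carried 50% of its UMIs. Lcn2 encodes lipocalin-2, an iron-trapping protein of inflammation (ENSMUSG00000026822), and stood at 137 against 9.27 CPM. Its UMIs were found in 14.2% (11.4 to 17.3) against 2.62% (1.5 to 4.22) of endothelial-like cells, and 12 DOCA-salt cells carried 50% of them. Lcn2 is also a gene of neutrophils, whose markers summed to 25.2 against 13.7 CPM in endothelial-like cells, and their part in it was not tested. Vcam1, an adhesion molecule for leukocytes, was found in 14.7% (11.9 to 17.9) against 10.1% (7.87 to 12.8) of cells, and these intervals overlapped. On the list of endothelial activation 6 of 14 measured members were at least 1.5-fold higher and 0 lower, with a median log2 ratio of 0.50. Of all genes in that class 4.96% were as much higher and 3.67% lower. Of the 14 members 12 stood above a ratio of 1 and 2 below, both with intervals below 1.

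Ptgs2, the inducible cyclooxygenase, had a ratio of 4.09 (2.40 to 7.34), and Ch25h, which makes the oxysterol 25-hydroxycholesterol, of 2.57 (1.59 to 4.25). Cytokine genes measured in endothelial-like cells included 4 of 8 at least 1.5-fold higher, with Csf1, a growth factor of macrophages, at 51.6 against 25.9 CPM, 1.99-fold higher (1.47 to 2.71). Among vascular growth factors Vegfc, a growth factor of lymphatic vessels, was at 45 against 20 UMIs, 2.59-fold higher (1.5 to 4.63), and Angpt2, which loosens the endothelial lining, was 2.30-fold higher (1.31 to 4.16). Of laminin chains in the basement membrane, Lama4 stood at 87.5 against 38.6 CPM and Lamc3 at 10.7 against 28.5 CPM, so that the former was higher and the latter lower. Pericytes make laminin as well, and the part of their RNA, given by the marker ratio of 1.49 in endothelial-like cells, was not tested. The chemokine Cxcl12, which holds leukocytes at the vessel, stood at 1830.3 against 1252 CPM, a ratio of 1.46 (1.40 to 1.53).

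Genes that set vessel tone were in part lower. Ramp2, which turns the receptor Calcrl into a receptor for the vessel-relaxing peptide adrenomedullin, stood at 1526 against 2612 CPM in endothelial-like cells, 1.71-fold lower (1.64 to 1.78). Ramp3, its relative, was 1.83-fold lower (1.32 to 2.56), while Calcrl itself had a ratio of 1.35 (1.10 to 1.64) and adrenomedullin (Adm) of 1.52 (1.16 to 1.99). Nos3, the endothelial nitric oxide synthase, stood at 161 against 239 CPM, a ratio of 0.675 (0.593 to 0.767), and Edn1, the precursor of the constrictor endothelin-1, at 129 against 174 CPM, a ratio of 0.744 (0.642 to 0.861). Neither passed 1.5-fold. Of 11 measured members of this list 2 were at least 1.5-fold lower and 1 higher. None of the 11 measured tight junction genes passed 1.5-fold in either direction, and their median log2 ratio was 0.00.

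The paralogs Cd59a and Cd59b, which block the complement attack complex, went opposite ways in endothelial-like cells. Cd59a stood at 90.5 against 309 CPM, 3.41-fold lower (2.93 to 3.99), and Cd59b at 32.4 against 4.08 CPM, 7.96-fold higher (4.20 to 16.6). The copies are alike in sequence, so how reads were split between them is uncertain. Map3k6, a stress kinase, stood at 10.2 against 47.1 CPM, and Lrg1, a glycoprotein that promotes vessel growth, was found in 8.60% against 1.15% of cells.

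**Figure D4:**
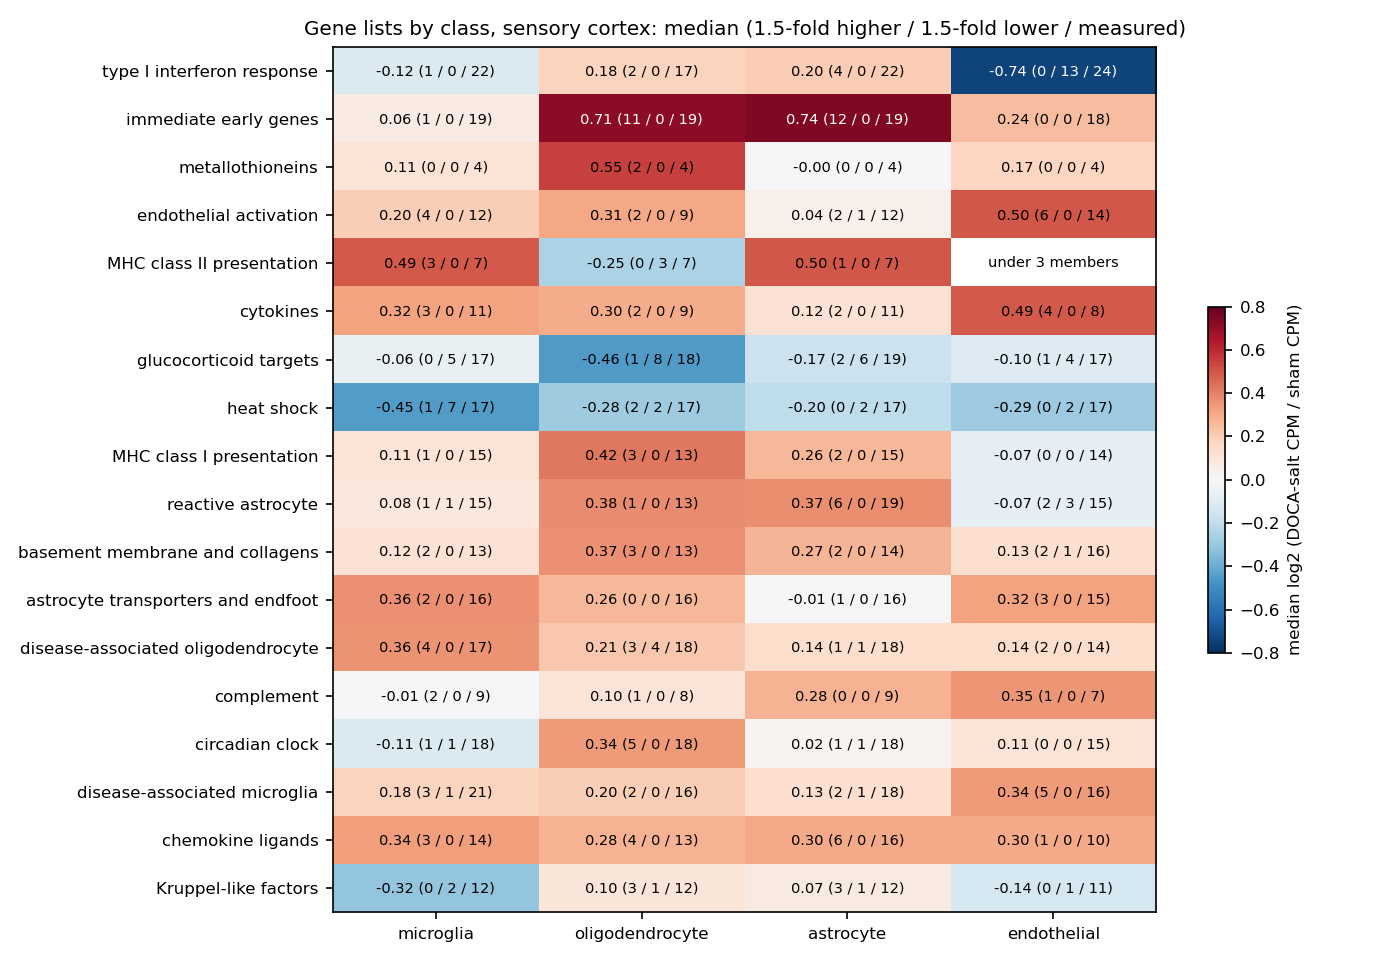
Median log2 ratio of DOCA-salt over sham for gene lists in each class, with the number of members at least 1.5-fold higher, at least 1.5-fold lower and measured. The interferon list in endothelial-like cells stands at -0.74 and the immediate early genes in oligodendrocyte- and astrocyte-like cells at 0.71 and 0.74.

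Immediate early genes, which cells switch on within minutes of a stimulus, were higher in oligodendrocyte- and astrocyte-like cells and close to even in microglia-like cells, a difference between classes that was not tested. In oligodendrocyte-like cells 11 of 19 measured members were at least 1.5-fold higher, 0 lower and all 19 above a ratio of 1. In astrocyte-like cells 12 of 19 were higher, and the medians were 0.71 and 0.74 on the log2 scale. In microglia-like cells 1 of 19 was higher, with a median of 0.06, and in endothelial-like cells 0 of 18, with a median of 0.24. Pericyte-like cells lay on the other side, with 13 of 14 members below a ratio of 1, 2 of them at least 1.5-fold lower, 0 higher and a median of -0.18. The intervals of 5 of these 14 lay below 1, and 6.41% of all genes in that class were at least 1.5-fold lower. The hippocampus medians were 0.74, 0.74 and 0.12 in oligodendrocyte-, astrocyte- and microglia-like cells. In pericyte-like cells the hippocampus median was 0.08, opposite in sign to that of cortex.

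Fos, a subunit of the AP-1 transcription factor (chr12:85473890-85477273), stood at 1633 against 340.4 CPM in oligodendrocyte-like cells, 4.80-fold higher (4.67 to 4.93). Its UMIs were found in 79.2% (77.6 to 80.6) against 59.8% (58.0 to 61.5) of those cells, and at 2000 UMIs per cell in 58.4% against 31.4%. In astrocyte-like cells Fos stood at 534 against 193 CPM, 2.76-fold higher (2.66 to 2.86), and in microglia-like cells at 4323 against 5365 CPM, a ratio of 0.806 (0.797 to 0.814). The order of the 3 ratios was oligodendrocyte-, astrocyte-, then microglia-like, and their intervals, which cover counting error only, did not overlap. In oligodendrocyte-like cells 50% of the Fos UMIs lay in 225 of 2856 and 144 of 2987 cells. The intervals do not cover that spread between cells, and the order was not tested.

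Dusp1, a phosphatase that shuts down stress kinases, was 3.64-fold higher (3.46 to 3.83) in oligodendrocyte-like cells, and Egr1, an early transcription factor, was 2.06-fold higher (1.94 to 2.18). Arc, an early gene of neurons, had a ratio of 4.40 (2.92 to 6.87) in astrocyte-like and of 2.01 (1.51 to 2.70) in microglia-like cells. Atf3, a stress-induced factor, was below 1 in both, at 0.888 and 0.717.

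Heat shock genes stood mostly below a ratio of 1, in 16 of 17 measured members in microglia-like, 15 in astrocyte-like and 16 in endothelial-like cells, and were mixed in oligodendrocyte-like cells, with 11 below and 6 above. At least 1.5-fold lower were 2 in astrocyte-like, 2 in endothelial-like and 2 in oligodendrocyte-like cells, and at least 1.5-fold higher were 0, 0 and 2. Of 17 measured members 7 were at least 1.5-fold lower and 1 higher in microglia-like cells, with a median log2 ratio of -0.45, and the hippocampus median was -0.50. Hspa1a, the inducible HSP70 chaperone (chr17:34969190-34972156), stood at 825 against 1625 CPM, a ratio of 0.508 (0.497 to 0.519), and was found in 76.6% against 86.5% of cells. Its close copy Hspa1b beside it had a ratio of 0.454 (0.424 to 0.487), and reads can be split between the copies.

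The co-chaperone Hsph1 stood at 58.1 against 115 CPM and the HSP90 gene Hsp90ab1 at 1903 against 3222 CPM in microglia-like cells, ratios of 0.505 (0.465 to 0.548) and 0.590 (0.582 to 0.599). In oligodendrocyte-like cells Hspa1a and its co-chaperone Dnajb1 were higher, at ratios of 1.82 and 2.0, while the constitutive chaperones Hspa8 and Hsp90ab1 were lower, at 0.660 and 0.661. Hspa8 was lower in astrocyte-like cells as well, with a ratio of 0.635 (0.625 to 0.646). In endothelial-like cells Hspb1, a small heat shock protein bound to actin, stood at 4473 against 7495 CPM, a ratio of 0.597 (0.583 to 0.611).

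Microglia-like cells had several genes present in 1 library and nearly missing in the other. Dpys, a dihydropyrimidinase of pyrimidine breakdown (ENSMUSG00000022304, chr15:39768487-39857470), stood at 21.5 against 0.199 CPM from 319 against 3 UMIs, 108-fold higher (36.7 to 528). Its UMIs were found in 10.8% (9.63 to 12.1) against 0.117% (0.0242 to 0.343) of microglia-like cells and in 0.35% against 0.134% of oligodendrocyte-like cells. Cntn4, an adhesion molecule of axons (chr6:105677660-106699310), stood at 59.8 against 1.99 CPM, 30.1-fold higher (20.9 to 44.9), and was found in 26.8% (25.0 to 28.6) against 1.13% (0.761 to 1.63) of cells. At 2000 UMIs per cell the shares for Cntn4 were 12.1% against 0.253%, and for Dpys 3.19% against 0.0421%.

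**Figure D5:**
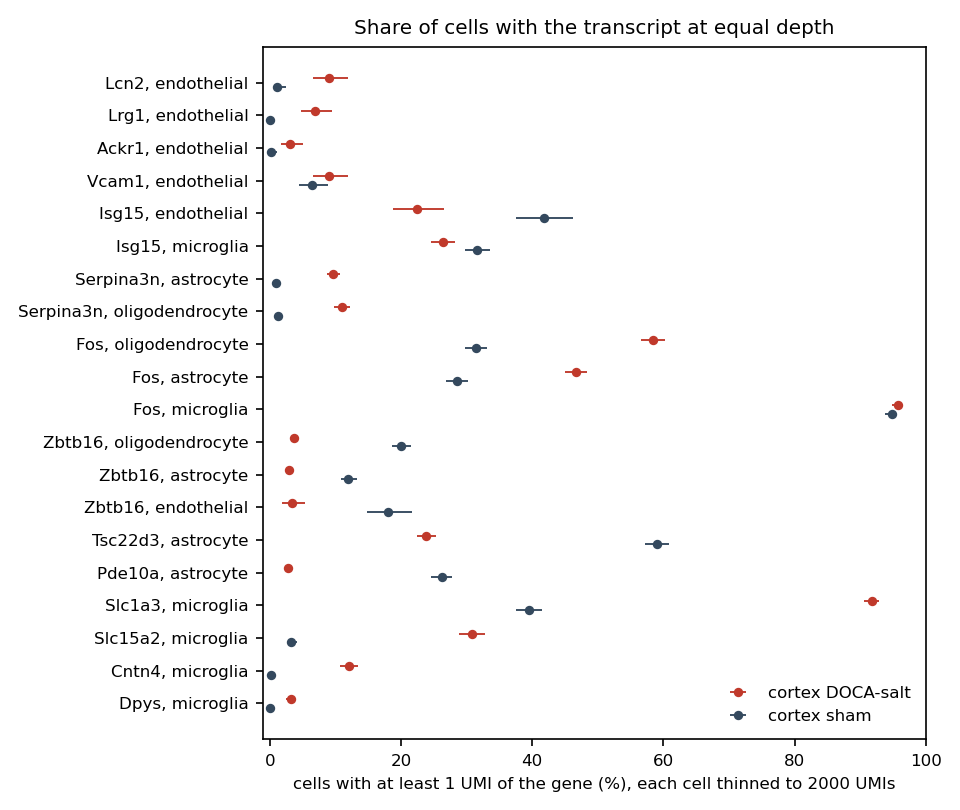
Share of cells with at least 1 UMI of selected genes after each cell was thinned to 2000 UMIs (bars are exact 95% binomial intervals; cells with fewer UMIs are left out). Slc1a3 in microglia-like cells stands at 91.7% against 39.5% and Pde10a in astrocyte-like cells at 2.84% against 26.2%.

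Slc1a3 encodes the glutamate transporter GLAST (ENSMUSG00000005360, chr15:8634124-8710764), a gene best known from astrocytes. In microglia-like cells it stood at 1721 against 255 CPM, 6.76-fold higher (6.53 to 6.99), and its UMIs were found in 97.1% (96.3 to 97.7) against 70.9% (69.0 to 72.6) of cells, or in 91.7% against 39.5% at 2000 UMIs per cell. In astrocyte-like cells it stood at 4008 against 4275 CPM, a ratio of 0.938 (0.929 to 0.946). Slc1a2, the other main glutamate transporter of astrocytes, stood at 330.4 against 260.3 CPM in microglia-like and 6801 against 7005 CPM in astrocyte-like cells. The UMIs of Slc1a3 per UMI of Slc1a2 were 5.21 against 0.978 in microglia-like cells, 0.589 against 0.610 in astrocyte-like cells and 0.694 against 0.618 in oligodendrocyte-like cells. The Slc1a2 ratio in microglia-like cells was 1.27 (1.22 to 1.32), so it was Slc1a3 that stood apart there and not both transporters.

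In oligodendrocyte-like cells Slc1a3 had a ratio of 1.35 (1.29 to 1.42) and in endothelial-like cells of 1.37 (1.23 to 1.53). The hippocampus ratio in microglia-like cells was 12. Ccr6, a chemokine receptor (chr17:8236043-8257141), stood at 83.1 against 5.77 CPM in microglia-like cells, 14.4-fold higher (11.6 to 18.1).

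On the low side, Upk1b, a tetraspanin known from the bladder lining (chr16:38773184-38800328), stood at 18.2 against 91.3 CPM in microglia-like cells, 5.03-fold lower (4.41 to 5.75). C5ar2, the second receptor of complement fragment C5a, stood at 15.9 against 41.4 CPM, 2.61-fold lower (2.24 to 3.04), and its relative C5ar1 at 238 against 308 CPM, a ratio of 0.772 (0.739 to 0.807). Fblim1, which links adhesion sites to actin, was 3.46-fold lower (2.79 to 4.32), and Camk2b, a calmodulin-dependent kinase of neurons, had 12 against 78 UMIs. Both complement receptors were lower, while the genes of the C1q complex had ratios of 0.993 for C1qa, 0.991 for C1qb and 0.945 for C1qc. On the complement list, which does not hold C5ar2, 2 of 9 measured members were at least 1.5-fold higher and 0 lower. Of the 9 members 3 stood above and 6 below a ratio of 1, with a median log2 ratio of -0.01.

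Homeostatic microglia genes, the set that marks resting microglia, were mostly a little lower. Of 20 measured members 19 were below a ratio of 1, yet 1 passed 1.5-fold, and the median log2 ratio was -0.25. None of them is a gate marker. Entpd1, the ectoenzyme CD39 that breaks down ATP, stood at 323 against 494 CPM, a ratio of 0.654 (0.631 to 0.678), and Csf1r, the receptor on which microglia depend, had a ratio of 0.933 (0.919 to 0.947). Of 21 disease-associated genes 3 were at least 1.5-fold higher and 1 lower. The lower one was Spp1, osteopontin, at 27 against 42 UMIs, and its log2 ratio was 0.075 with thinned cells. The higher ones were low in level, with Itgax, an integrin, at 4.73 against 2.65 CPM and Lgals3, a galectin, at a ratio of 2.15 (1.54 to 3.03). Apoe, the lipid carrier, stood at 2288 against 1544 CPM, a ratio of 1.48 (1.46 to 1.51), and Trem2, the lipid-sensing receptor, had a ratio of 1.11 (1.09 to 1.13).

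Cytokine genes of microglia-like cells leaned higher in the DOCA-salt library. Of 11 measured members 3 were at least 1.5-fold higher and 0 lower. Tnf was found in 81.6% (80.0 to 83.1) against 70.0% (68.2 to 71.8) of cells and, at 2000 UMIs per cell, in 64.3% against 48.8%. Il1b, the cytokine interleukin-1 beta, stood at 104 against 68.3 CPM, 1.52-fold higher (1.40 to 1.64), and was found in 17.6% (16.1 to 19.2) against 12.6% (11.4 to 14.0) of cells. Il1a had a ratio of 1.21 (1.18 to 1.23) and so did not pass 1.5-fold.

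Chemokines split within the class. Of 14 measured ligands 3 were at least 1.5-fold higher and 0 lower, and the hippocampus median was -0.25 against 0.34 in cortex. Ccl6 stood at 104 against 55.5 CPM, Cxcl2, which draws neutrophils, at 208 against 122 CPM, and Ccl12, which draws monocytes, at 756 against 536 CPM, a ratio of 1.41 (1.37 to 1.45). Ccl4, at 59530 against 73730 UMIs, had a ratio of 0.822 (0.814 to 0.831), and Cxcl10, which is induced by interferon, of 0.734 (0.714 to 0.755).

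MHC class II genes, which present antigen to helper T cells, were higher in microglia-like cells of the DOCA-salt library. H2-Aa stood at 27.0 against 12.5 CPM, 2.17-fold higher (1.82 to 2.59), and Cd74, the invariant chain, at 492 against 349 CPM, a ratio of 1.41 (1.36 to 1.46). Of 7 measured members 3 were at least 1.5-fold higher and 0 lower. The markers of B cells and of monocytes or dendritic cells had ratios of 1.22 and 1.54 in microglia-like cells. The part of RNA from those classes in these values was not tested. In oligodendrocyte-like cells the direction was opposite, with 3 members lower and ratios of 0.535 for H2-Aa and 0.608 for H2-Ab1. A single barcode held 22.8% of the Cd74 UMIs of the oligodendrocyte-like cells in the sham library, and Cd74 was found in 14.0% against 10.5% of those cells. The oligodendrocyte-like direction turned under other settings, with log2 ratios of 0.14 for H2-Ab1 without marked doublets and 0.19 for H2-Eb1 with thinned cells.

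In microglia-like cells the oxidative phosphorylation, antioxidant and Toll-like receptor lists had at most 1 member past 1.5-fold, while single genes of other lists differed by more. All 40 measured nuclear genes of oxidative phosphorylation were above a ratio of 1, with a median log2 ratio of 0.16 and 1 member past 1.5-fold, while the medians in the other main classes lay between -0.05 and 0.01. The median share of mitochondrial UMIs per microglia-like cell was 1.29% against 0.848%, and its part in that result was not tested. Klf2, a Kruppel-like factor of quiescence, stood at 1326 against 2068 CPM, a ratio of 0.641 (0.630 to 0.653). Slc12a2, the cotransporter NKCC1 that brings sodium, potassium and chloride into cells, stood at 101 against 63.3 CPM, 1.59-fold higher (1.47 to 1.73), and had a ratio of 0.947 (0.914 to 0.981) in oligodendrocyte-like cells. Stard4, a carrier of cholesterol, was 3.62-fold higher (2.18 to 6.27). On the list of cholesterol synthesis 2 of 21 measured members were at least 1.5-fold higher and 0 lower, with a median log2 ratio of 0.06. None of the 19 listed NADPH oxidase and antioxidant genes or the 14 listed Toll-like receptor genes measured in microglia-like cells passed 1.5-fold. Sod3 and Gstp1, given above, are not on the antioxidant list, and both passed 1.5-fold in these cells, Sod3 lower and Gstp1 higher.

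In astrocyte-like cells Pde10a, a phosphodiesterase that breaks down cAMP and cGMP and is best known from the striatum (ENSMUSG00000023868, chr17:8525372-8986648), ranked first on the low side by the naming rule. It stood at 16.0 against 219 CPM from 387 against 4769 UMIs, 13.7-fold lower (12.3 to 15.2). Its UMIs were found in 6.75% (5.99 to 7.58) against 43.3% (41.6 to 45.0) of astrocyte-like cells and, at 2000 UMIs per cell, in 2.84% against 26.2%. The share of oligodendrocyte-like cells with a UMI was 1.93% against 5.62%. The hippocampus ratio in astrocyte-like cells was 0.0717, so the gene was lower in the DOCA-salt library of both tissues.

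Serpina3n, a protease inhibitor of reactive glia (chr12:104406729-104414329) from a family of close copies, stood at 55.0 against 3.95 CPM in astrocyte-like cells, and 382 DOCA-salt cells carried 50% of its UMIs, so its level was spread over many cells. Bricd5 was 8.31-fold higher (6.58 to 10.6) and Fshr, the receptor of follicle-stimulating hormone, had 147 against 5 UMIs, 26.5-fold higher (11.1 to 82.7). Myh8, a muscle myosin from a cluster of like genes, had 73 against 0 UMIs in astrocyte-like and 62 against 1 UMIs in oligodendrocyte-like cells. Dubr, a long non-coding RNA, was 5.20-fold lower (3.74 to 7.38).

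The reactive astrocyte list, drawn from genes that astrocytes switch on after injury, had 6 of 19 measured members at least 1.5-fold higher and 0 lower. Fbln5, a fibulin of elastic fibres, was 4.13-fold higher (3.10 to 5.58), and ceruloplasmin (Cp), a copper-bound iron oxidase, was 1.67-fold higher (1.04 to 2.75). Gfap, the intermediate filament by which reactive astrocytes are usually recognised, stood at 97.8 against 111 CPM, a ratio of 0.884 (0.835 to 0.936), and Vim, another such filament, had a ratio of 1.09 (1.01 to 1.17). The members that passed 1.5-fold were thus not the filament genes.

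Salt handling by astrocyte-like cells differed at single members. Atp1b1, a beta subunit of the sodium pump, stood at 158 against 238 CPM, 1.5-fold lower (1.44 to 1.57), and Fxyd6, a small regulator of the pump, at 9.29 against 18.2 CPM, 1.96-fold lower (1.66 to 2.31). Atp1b2, another beta subunit, had a ratio of 0.956 (0.942 to 0.971). Of 19 measured members 2 were at least 1.5-fold lower and 0 higher. The endfoot and transporter list had a median log2 ratio of -0.01. Gria1, an AMPA receptor subunit, stood at 39.0 against 23.3 CPM, 1.67-fold higher (1.5 to 1.87), and Adm had 105 against 37 UMIs, 2.55-fold higher (1.74 to 3.82).

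Chemokine genes in astrocyte-like cells were low in level, with 6 of 16 at least 1.5-fold higher. Ccl12 stood at 40.5 against 20.2 CPM and Ccl5, which draws T cells, at 6.36 against 2.39 CPM. The same libraries' microglia-like cells had far more of both, where Ccl12 stood at 756 and 536 CPM and Ccl5 at 74.9 and 52.6 CPM, and the microglia markers in astrocyte-like cells had a ratio of 1.14. Their part in these values was not tested. The clock gene Npas2 stood at 59.2 against 93.9 CPM in astrocyte-like cells, 1.59-fold lower (1.48 to 1.70), and Ciart, a repressor of the clock, was 1.63-fold higher (1.38 to 1.92).

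In oligodendrocyte-like cells the genes with the largest ratios on the high side had few UMIs in the sham library. Zfp804b, a zinc finger gene (chr5:6769010-7344756), stood at 47.8 against 1.33 CPM, 35.8-fold higher (24.3 to 55.2), and was found in 14.4% (13.1 to 15.7) against 0.737% (0.462 to 1.11) of cells. Slc24a4, a sodium-calcium exchanger, had 116 against 2 UMIs and Neb, the muscle filament nebulin, 126 against 4 UMIs. On the low side Rims2, which organises sites of vesicle release, stood at 8.54 against 37.3 CPM, 4.37-fold lower (3.65 to 5.27). St8sia3, which adds sialic acid, had 22 against 172 UMIs, and Il23a, a cytokine subunit, 23 against 162 UMIs.

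Genes of excitability in oligodendrocyte-like cells included 4 of 18 on the list of potassium and glutamate handling at least 1.5-fold higher and 1 lower. Kcnma1, the large-conductance potassium channel, was 2.74-fold higher (2.26 to 3.32) and Gria1 2.86-fold higher (1.62 to 5.26). Myelin genes stayed within 1.5-fold, with Mbp at a ratio of 0.866 (0.859 to 0.873) and a median log2 ratio of -0.21 over 12 members. The oligodendrocyte gate markers had a ratio of 0.89 in the same cells, and a lower number of transcripts per cell cannot be told apart from a larger share of other RNA.

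C4b, a complement component that marks stressed oligodendrocytes, stood at 54.0 against 13.5 CPM, 3.99-fold higher (3.47 to 4.59), and in endothelial-like cells at 39.7 against 5.93 CPM, 6.69-fold higher (3.91 to 12.2). In astrocyte-like cells, at 54.8 against 40.3 CPM, its ratio was 1.36 (1.25 to 1.48). MHC class I genes, which present peptides on most cells, had 3 of 13 members at least 1.5-fold higher in oligodendrocyte-like cells and a median log2 ratio of 0.42, against -0.07 in endothelial-like cells. Metallothionein Mt2, a metal buffer, stood at 235 against 135 CPM, 1.73-fold higher (1.65 to 1.82). Sparc, a protein that binds matrix, stood at 289 against 191 CPM in oligodendrocyte-like cells, 1.51-fold higher (1.45 to 1.58), and had ratios of 0.833 in microglia-like and 0.816 in endothelial-like cells.

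Of 18 clock genes measured in oligodendrocyte-like cells, 5 passed 1.5-fold on the high side and 0 on the low side, while 13 stood above and 5 below a ratio of 1. Cry2, a repressor of the clock, stood at 28.0 against 14.5 CPM, 1.94-fold higher (1.67 to 2.25), and Bhlhe40, another repressor, at 18.1 against 9.85 CPM, 1.84-fold higher (1.53 to 2.21). Per1 had a ratio of 0.756 (0.663 to 0.861) in these cells and of 0.796 (0.744 to 0.852) in microglia-like cells. In microglia-like cells Bhlhe40 was the 1 member past 1.5-fold on the high side, from 91 against 61 UMIs, but its log2 ratio was -0.14 with thinned cells, and Npas2 was the 1 member on the low side. Klf4, a Kruppel-like factor, was 2.90-fold higher (2.58 to 3.26) in oligodendrocyte-like and 2.05-fold higher (1.83 to 2.29) in astrocyte-like cells.

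Pericyte-like cells, 119 and 80, were described by the lists alone. Ramp2 stood at 101 against 417 CPM (35 against 98 UMIs), a ratio of 0.241 (0.159 to 0.359), and the glucose transporter Slc2a1 at 244 against 617 CPM, a ratio of 0.396 (0.30 to 0.522). Both genes are far higher in endothelial-like cells, at 1526 and 2612 CPM and 1894 and 3130.3 CPM. The endothelial markers summed to 1259 against 1790 CPM in pericyte-like cells, a ratio of 0.70, so they were lower in the same direction as these genes, and the part of endothelial RNA in the pericyte-like values was not tested. The endothelin receptor gene Ednra had a ratio of 1.45 (0.954 to 2.25). Collagen IV, the mesh of the basement membrane, stood at 336 against 540.1 CPM for Col4a1, a ratio of 0.623 (0.480 to 0.807). Of 14 heat shock genes 6 were at least 1.5-fold lower and 0 higher, with a median log2 ratio of -0.43, against 6.41% and 7.31% of all 2217 genes measured in that class.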

How the data were processed

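Droplet single-cell libraries of the 3' ends of polyA RNA were made with a SeekOne kit per the labels, 1 library per tissue and treatment. The deposited matrices hold UMI counts per barcode for 32285 genes, not normalized by the authors. Per the submitters' processing notes, reads were handled with fastp, STAR, Subread and Seurat on GRCm38, and versions and counting strand are not given in the sources used here, so overlapping and antisense genes cannot be told apart.

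Groups were taken from the titles. The limits of 300 genes and 20% mitochondrial UMIs took out 48 and 73 barcodes. All held at least 500 UMIs. A cell entered a class if at least 3 of its markers had a UMI, their level was at least 0.25 of the class reference and it was at least 3 times that of the next class. UMI counts were summed per class and library, scaled to 1000000 (CPM), and compared as ratios with exact 95% intervals of counting error. Shares of cells carry exact binomial (Clopper-Pearson) intervals. A single library per group allowed no test and no p-value. Detection was also computed after thinning cells to 2000 UMIs, which left out 1255 and 1278 shallower cells. PCR copies were removed only as far as UMIs do so.

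Named genes were, per class, the 4 highest and 4 lowest by the interval bound nearest to 1, up to 8 per direction shared by the 4 main classes, and members of 33 gene lists. The gene members and lists were chosen with earlier results of these data known. Some genes are not reported here. Positions were matched by gene ID to GENCODE vM21 for 32158 genes. Doublets were marked with Scrublet in scanpy 1.11.5, at an expected rate of 0.08, and kept. Python 3.11.15, numpy 2.4.6 and scipy 1.17.1 were used. Alternatives were other gates, cell filters, count minimums, thinned counts and the removal of doublets, and the ratio code was tested on simulated data.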

Additional observations from a re-analysis of the deposited data

Results flagged for a closer look

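Several results pointed one way in cortex and the opposite way in hippocampus, each tissue with 1 library per treatment, and none of these differences was tested. The ratio of the share of microglia-like cells was 0.927 in cortex and 1.15 in hippocampus.

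Cntnap5a, an adhesion protein of the neurexin superfamily, had cortex ratios of 0.618 in astrocyte-like, 0.545 in endothelial-like, 0.398 in microglia-like and 0.565 in oligodendrocyte-like cells. The hippocampus ratios in the same order were 1.67, 1.88, 1.22 and 1.53. Gstp1 had cortex ratios of 1.67, 1.62, 1.58 and 1.72 in those classes, against 0.869, 0.795, 0.798 and 0.922 in hippocampus. All 4 classes of a library share its preparation, so their common direction is not independent.

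The chemokine Ccl7, which draws monocytes, had cortex ratios of 1.51 in microglia-like and 1.71 in oligodendrocyte-like cells, against 0.840 and 0.775 in hippocampus. Gria1 had a ratio of 1.67 in astrocyte-like cells of cortex and 0.857 of hippocampus.

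In oligodendrocyte-like cells the class II genes H2-Ab1, H2-Aa and H2-Eb1 had cortex ratios of 0.608, 0.535 and 0.582, against 1.32, 1.21 and 1.23 in hippocampus. Gfap in endothelial-like cells had a ratio of 0.493 in cortex and 2.81 in hippocampus, and the lipocalin Apod in pericyte-like cells had ratios of 1.56 and 0.665. Gfap is a gene of astrocytes, whose markers summed to 1379 against 1091 CPM in the endothelial-like cells of cortex. The part of astrocyte RNA in the Gfap values was not tested.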

How the results depend on the processing

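No paired analysis was possible because each group was 1 library, and no replicate could be left out. Over the planned settings, gene ratios kept their side of 1 in 2300 cases and changed it in 7. Without changing sides, ratios left the counting interval of the reported value for 54 of 327 with thinned cells and 24 of 330 with equal weight per cell, and for at most 10 under any other setting. Over all settings, list medians kept their sign in 1294, with 93 of other sign. Some class shares moved. As shares of barcodes with a class, the ratio was 0.908 for oligodendrocyte-like and 1.16 for astrocyte-like cells, and with immune and erythroid cells also left out 0.883 and 1.12. With a stricter gate the neuron ratio was 0 and that of monocytes or dendritic cells 0.586, from few cells. The counts of genes past 1.5-fold depended on the minimum of UMIs, by construction. At 20 and 200 UMIs, higher genes numbered 1110 and 198 in microglia-like, 1234 and 292 in oligodendrocyte-like, 1372 and 338 in astrocyte-like and 943 and 79 in endothelial-like cells, against 621, 753, 810 and 435 at 50. Lower genes numbered 472 and 100, 558 and 160, 481 and 149, and 596 and 105. With thinned cells, 399 genes were higher in microglia-like cells, of which 188 were among the 621, and their MHC class II median was 0.41, against 0.49. In oligodendrocyte- and astrocyte-like cells 523 and 583 were then higher, of which 278 and 290 were among the 753 and 810. In endothelial-like cells 313 of 5765 genes were then higher and 300 lower, of which 102 and 121 were among the 435 and 322. Thinned log2 ratios changed sign for Spp1 (0.075), Bhlhe40 (-0.14) and Icam2 (-0.15) in microglia-like, H2-DMb1 (-0.032) in astrocyte-like, H2-Eb1 (0.19) in oligodendrocyte-like and Pgam1 (-0.15) in pericyte-like cells. With doublets removed H2-Ab1 in oligodendrocyte-like cells stood at 0.14, so the class II direction in that class is not stable. The cause of these changes was not tested. Depth limits pericyte-like cells and genes below about 50 UMIs, and intervals cover counting error only.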

Other observations

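The predicted gene Gm8797, which the naming rule leaves out and which was picked after its values were seen, was far higher in the DOCA-salt library in every main class. It stood at 659.6 against 17.6 CPM in microglia-like, 598 against 19.9 CPM in oligodendrocyte-like, 419 against 9.59 CPM in astrocyte-like and 958 against 26.7 CPM in endothelial-like cells. The hippocampus ratios in the same order were 24.1, 20.7, 34.0 and 30.5. The ribosomal protein gene Rpl15, also picked after its values were seen, had cortex ratios of 1.82, 1.52, 1.60 and 1.88 in those classes and hippocampus ratios of 1.06, 0.921, 1.06 and 0.922.

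Ankrd37, an ankyrin repeat gene induced by low oxygen, stood at 195 against 58.9 CPM in endothelial-like cells, 3.32-fold higher (2.76 to 4.0), and the glycolytic enzyme Eno1 at 169.9 against 92.7 CPM, 1.83-fold higher (1.56 to 2.16). Of 21 measured members of the hypoxia list in that class, 15 stood above and 6 below a ratio of 1, 3 were at least 1.5-fold higher and 1 lower. Pgk1 and Ndrg1, chosen after their values were seen, had ratios of 0.978 (0.817 to 1.17) and 0.697 (0.645 to 0.752).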
